A study of Mus musculus with 9 samples.

Results

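The 45 DNA replication and S-phase genes described here were a list of symbols: origin licensing factors, the subunits and activators of the replicative helicase, the sliding clamp and its loader, polymerases and primase, single-strand binding proteins, lagging-strand enzymes, nucleotide synthesis enzymes, E-type cyclins and chromatin assembly factors. They were found among 24011 named genes by Entrez Gene number, and all 45 had a probe set. Of these, 44 lay above the level filter, a mean log2 level over all arrays of at least 5.28 (the 30th percentile), as did 16808 genes in all. Gins1 lay under it in every array (4.94 to 5.24) and was not tested.

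Large intestine RNA of C57BL/6 mice was hybridised to 9 Affymetrix Mouse Gene 2.0 ST arrays. The mice of every group, controls included, carried rtTA, the activator that turns on a transgene when doxycycline is given, and a doxycycline-induced short hairpin RNA. Doxycycline (1 mg/ml, with 5% sucrose) was in the drinking water for 14 days from an age of 4 weeks. The control hairpin, FLuc.1309, targets firefly luciferase, a gene that mice lack (3 arrays). The hairpins DHX9.1271 (DHX9-1271, 3 arrays) and DHX9.837 (DHX9-837, 3 arrays) target Dhx9, which encodes an RNA and DNA helicase. The promoter that drives rtTA, the sex of the mice and whether each line came from 1 founder are not stated in the labels. No wild-type or untreated arrays were analysed here. The labels number the replicates without saying that each is a separate animal, so p-values here reflect only how far these samples spread, which may be technical.

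Values are RMA log2 expression levels, on which a difference of 1 is 2-fold. Array medians ran from 6.24 to 6.28. Precision depends on how many arrays there are and on how far the values of each gene spread. Dhx9 read 9.21, 9.18 and 9.32 in the control arrays, 8.27, 8.22 and 8.18 with DHX9-1271 and 8.19, 8.22 and 8.20 with DHX9-837, so every knockdown array lay below every control array. Its log2 fold against control was -1.02 (SE 0.044, adjusted p = 1.28e-05) for both hairpins together by limma, and an exact two-sided permutation of the arrays gave p = 0.0119, the smallest these 9 arrays can give. With each hairpin alone the exact p was 0.1, the smallest that 3 arrays against 3 can give. Markers of the labelled tissue were bright in controls: Car1, a colonic carbonic anhydrase, averaged 13.07, Muc2, the goblet cell mucin, 12.69, and Slc26a3, the colonic chloride exchanger, 12.40. Of the posterior Hox genes, Hoxb13 averaged 5.40 and Hoxd13 lay under the level filter.

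Before S phase, the origin recognition complex, Cdc6 and Cdt1 load the hexamer of Mcm2 to Mcm7 on DNA. Cdc45, the GINS complex and Mcm10 then turn it into a moving helicase, and polymerases held by the PCNA clamp copy the strands. E2F transcription factors switch on many of these genes as cells leave G1. In the large intestine most replicating cells are transit cells of the lower crypt, while surface colonocytes have left the cycle.

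With both hairpins against control, 8 of the 44 tested members rose at an adjusted p under 0.05 and 0 fell. The 8 were Mcm10, Rfc4, Rrm2, Mcm3, Ccne1, Gins3, Mcm2 and Pola2, with rises of 1.15-fold to 1.43-fold. Over all genes tested 8.13% rose and 5.33% fell by the same rule, against 18.2% and 0% of the members. The other 36 members had log2 folds from -0.17 to 0.25. Over the 44, the median log2 fold was 0.089, against 0.0011 over all genes tested. A positive fold was seen in 34 of the 44 members and in 8473 of all 16808 genes. An unadjusted p under 0.05 was reached by 19 of the 44 members and by 4874 of all 16808 genes. In 11 members every knockdown array lay above every control array (10.7% of all genes did) and in 2 every knockdown array lay below (6.73% of all genes). In whole tissue, a change in the number of cells of a type and a change in RNA per cell cannot be told apart. Without control replicate 1, the array with the lowest mean member level, 5 members rose instead of 8, against 4.63% of all genes.

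**Figure D1:**
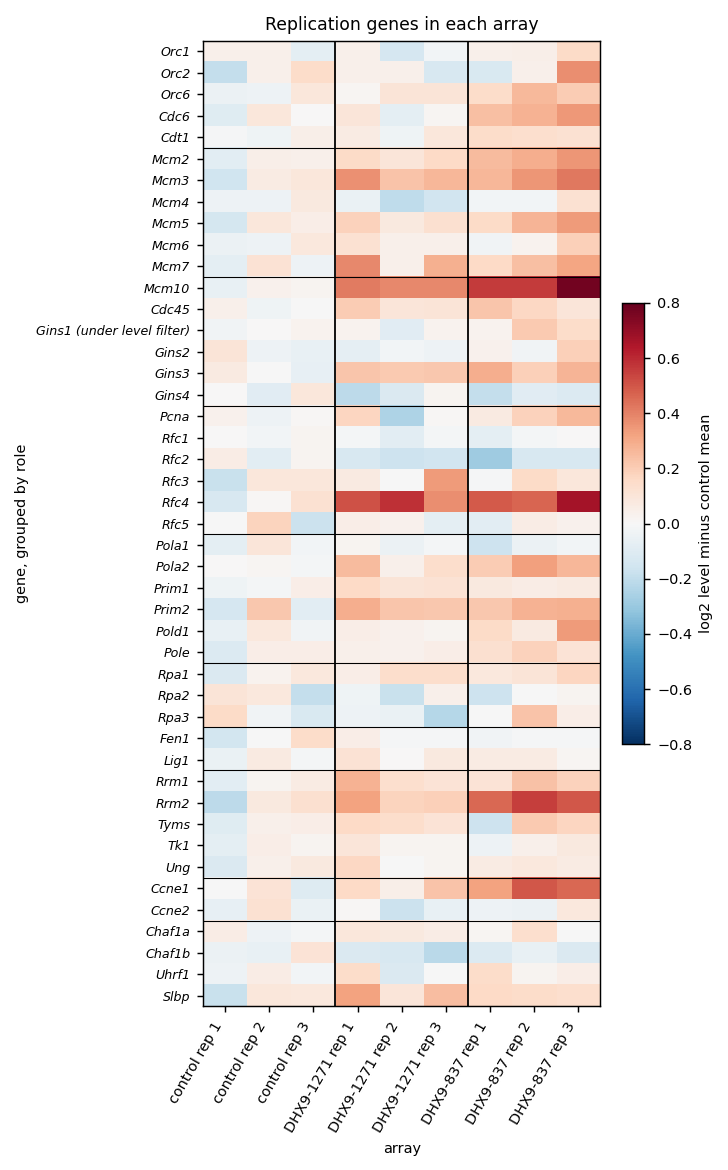
Log2 level of each of the 45 members in each of the 9 arrays, minus the mean of that gene's 3 control arrays (colour scale from -0.8 to 0.8), with genes grouped by role and separated by lines. Mcm10 and Rfc4 are clearly red in all 6 knockdown arrays, Rrm2 and Ccne1 are darker with DHX9-837 than with DHX9-1271, and most other rows stay pale.

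Taken singly, the hairpins gave unequal counts. DHX9-837 against control had 10 members higher and 0 lower, against 8.67% and 6.91% of all genes. DHX9-1271 against control had 2 higher, Mcm10 and Rfc4, and 0 lower, against 2.83% and 1.58% of all genes. The median member log2 fold was 0.094 with DHX9-837 and 0.064 with DHX9-1271, and the latter was 0.036 without control replicate 1 and 0.039 with cyclic loess. These comparisons share the control arrays and are not independent. The difference between the hairpins was itself tested: 0 of the 44 members were called by limma (1.9% of all genes were). An unadjusted p under 0.05 was reached by 7 of the 44 members, and by 2409 of all 16808 genes, a similar share. Leaving out single arrays moved the counts, to 6 higher for DHX9-837 without its replicate 2 or without its replicate 3, where the share of all genes called higher was 5.92% and 5.6%. For DHX9-1271 the count was 0 without its replicate 1 or 2, against 1.12% and 0.779% of all genes. It was 1 without its replicate 3 or without control replicate 1, against 0.458% and 1.29% of all genes.

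The promoters of the 6 members of smallest p in the pooled comparison are shown because these genes were called and E2F-type sites are the textbook feature of replication genes. Each is the 250 bases before the RefSeq start of the gene, 5′ to 3′ on the gene's strand, from RefSeq's GRCm38.p6 table. Capitals mark an E2F-type core or a CCAAT box on either strand.
Mcm10 (chr2:5012792-5013041, minus strand): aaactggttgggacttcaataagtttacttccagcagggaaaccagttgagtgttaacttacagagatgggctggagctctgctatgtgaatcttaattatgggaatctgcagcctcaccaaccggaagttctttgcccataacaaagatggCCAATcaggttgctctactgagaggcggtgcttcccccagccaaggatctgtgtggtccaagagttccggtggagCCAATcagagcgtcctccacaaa
Rfc4 (chr16:23127731-23127980, minus strand): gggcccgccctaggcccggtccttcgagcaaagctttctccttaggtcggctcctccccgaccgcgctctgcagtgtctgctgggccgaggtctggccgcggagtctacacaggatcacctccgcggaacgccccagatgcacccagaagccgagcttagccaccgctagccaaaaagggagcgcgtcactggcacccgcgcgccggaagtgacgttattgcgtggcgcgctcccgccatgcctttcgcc
Gins3 (chr8:95633309-95633558, plus strand): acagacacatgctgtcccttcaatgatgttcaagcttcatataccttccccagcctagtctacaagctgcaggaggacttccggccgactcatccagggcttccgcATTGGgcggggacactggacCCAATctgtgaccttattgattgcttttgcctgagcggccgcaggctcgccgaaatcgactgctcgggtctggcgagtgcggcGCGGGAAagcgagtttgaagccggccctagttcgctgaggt
Rrm2 (chr12:24708004-24708253, plus strand): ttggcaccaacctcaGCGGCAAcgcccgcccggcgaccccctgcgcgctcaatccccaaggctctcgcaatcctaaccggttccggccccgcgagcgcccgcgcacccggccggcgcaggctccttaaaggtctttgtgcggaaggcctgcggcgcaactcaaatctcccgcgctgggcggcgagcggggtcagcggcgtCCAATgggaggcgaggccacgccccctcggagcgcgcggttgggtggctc
Mcm3 (chr1:20820313-20820562, minus strand): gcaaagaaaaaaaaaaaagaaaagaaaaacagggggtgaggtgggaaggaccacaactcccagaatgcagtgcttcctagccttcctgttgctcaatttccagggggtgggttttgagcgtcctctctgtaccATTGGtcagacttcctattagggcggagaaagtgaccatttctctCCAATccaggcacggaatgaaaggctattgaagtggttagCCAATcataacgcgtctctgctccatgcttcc
Mcm2 (chr6:88898781-88899030, minus strand): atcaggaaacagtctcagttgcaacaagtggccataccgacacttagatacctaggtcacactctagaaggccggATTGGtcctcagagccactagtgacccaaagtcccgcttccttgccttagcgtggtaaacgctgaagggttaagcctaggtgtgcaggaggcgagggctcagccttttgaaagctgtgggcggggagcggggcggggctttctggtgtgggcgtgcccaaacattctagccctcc
The E2F-type core was searched as TTCCCGC or TTGGCGC or TTCGCGC or TTGCCGC and the CCAAT box as CCAAT, on both strands. Bases after the start were not searched, so a core there would be missed. A CCAAT match on the opposite strand can overlap the second of these cores. The Mcm10 window held 2 CCAAT boxes and no E2F-type core, that of Mcm3 held 3 CCAAT boxes and that of Mcm2 held 1, also with no core. In the Gins3 window 1 E2F-type core lay 34 bases before the start, and there were 2 CCAAT boxes. The Rrm2 window had 1 core, 228 bases before the start, and 1 CCAAT box, while the Rfc4 window had neither. The table held windows for 37 of the 45 members, 43 windows in all. An E2F-type core was in 44.2% of these windows, in 7.89% of all 32851 windows of the table and in 11.9% of the 16152 windows of tested genes. For CCAAT the shares were 60.5%, 33.8% and 34.2%. Among members called higher in any comparison with control, 3 of 10 windows held the core, and among members tested and not called, 16 of 33 did. A match is a description of the letters, not a bound site.

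Among origin licensing factors, the pooled comparison called 0 of 5. Over all genes 8.13% rose and 5.33% fell in that comparison. Each role holds so few genes that 0 calls does not set a role apart. Cdc6, the ATPase that helps to load the helicase, read 6.05, 6.24 and 6.15 in the control arrays, 6.25, 6.07 and 6.16 with DHX9-1271 and 6.39, 6.43 and 6.50 with DHX9-837. The DHX9-837 arrays lay above all others, whereas the DHX9-1271 arrays overlapped the controls. Its log2 fold was 0.29 (SE 0.066, adjusted p = 0.0192) with DHX9-837 and 0.01 (SE 0.066, adjusted p = 0.944) with DHX9-1271. The difference between hairpins, 0.28 (95% interval 0.13 to 0.43, adjusted p = 0.0758), had the smallest adjusted p of all members and was not called. Its DHX9-837 call ended without DHX9-837 replicate 2 (adjusted p = 0.0509), without DHX9-837 replicate 3 (adjusted p = 0.0639) and without control replicate 1 (adjusted p = 0.0579).

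Orc6, a subunit of the origin recognition complex, read 6.54, 6.55 and 6.68 in the control arrays, 6.61, 6.69 and 6.69 with DHX9-1271 and 6.73, 6.84 and 6.79 with DHX9-837. Again the DHX9-837 arrays lay above all others and the DHX9-1271 arrays overlapped the controls. Its log2 fold of 0.20 (SE 0.056, adjusted p = 0.0426) with DHX9-837 was close to the threshold, and the call was kept in only 1 of 9 fits without 1 array (without control replicate 3; adjusted p = 0.0537 to 0.126 in the other 8). For Orc1 and Orc2, the other subunits on the list, and Cdt1, the partner of Cdc6 in loading, the pooled log2 folds were 0.02, 0.04 and 0.09, none of them called. All 3 DHX9-837 arrays of Cdt1 (7.24 to 7.26) lay above those of the other groups.

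Of the 6 subunits of the helicase ring, 2 rose in the pooled comparison and 4 were not called. Mcm3 read 7.32, 7.55 and 7.57 in the control arrays, 7.85, 7.71 and 7.74 with DHX9-1271 and 7.75, 7.83 and 7.90 with DHX9-837. Every knockdown array lay above every control array, and the spread within controls came mostly from control replicate 1. Its log2 fold was 0.32 (SE 0.067, adjusted p = 0.0158) for both hairpins, 0.35 (SE 0.077, adjusted p = 0.0171) for DHX9-837 and 0.29 (SE 0.077, adjusted p = 0.0779) for DHX9-1271. The DHX9-837 call ended without its replicate 2 (adjusted p = 0.0509) and without its replicate 3 (adjusted p = 0.0588).

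Mcm2 levels were 7.65, 7.78 and 7.77 in the control arrays, 7.89, 7.83 and 7.89 with DHX9-1271 and 7.99, 8.02 and 8.09 with DHX9-837. The 3 groups did not overlap, with control lowest and DHX9-837 highest. The pooled log2 fold of 0.22 (SE 0.046, adjusted p = 0.016) lost its call without control replicate 1 (0.18, adjusted p = 0.0567). With DHX9-837 the log2 fold was 0.30 (SE 0.053, adjusted p = 0.00677) and with DHX9-1271 0.14 (SE 0.053, adjusted p = 0.187). The hairpins differed by 0.16 (95% interval 0.04 to 0.28, adjusted p = 0.197).

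Of the remaining subunits, Mcm5 had a pooled log2 fold of 0.19 (SE 0.065, adjusted p = 0.0859) and Mcm7 one of 0.24 (SE 0.080, adjusted p = 0.086). With DHX9-837 the log2 fold of Mcm5 was 0.25 (SE 0.075, adjusted p = 0.0521). That fold was called with cyclic loess, the filter at the median gene, and trend and robust moderation (adjusted p = 0.0348 to 0.0422). It was also called without DHX9-837 replicate 1 (adjusted p = 0.0462) and without control replicate 2 (adjusted p = 0.0452). Mcm7 was called without DHX9-1271 replicate 2 (0.29, adjusted p = 0.0284), the lowest of the knockdown arrays for this gene (7.88). Mcm6 had a log2 fold of 0.07 and Mcm4 one of -0.05. The log2 folds of Mcm4 had opposite signs, at -0.14 with DHX9-1271 and 0.03 with DHX9-837, and neither was called. The difference between hairpins was 0.16 (95% interval 0.02 to 0.31, adjusted p = 0.281).

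Among the factors that activate the helicase, Mcm10 and Gins3 rose in the pooled comparison, and 3 others were not called. Mcm10, which binds the loaded ring and is needed for it to unwind DNA, read 6.78, 6.88 and 6.87 in the control arrays, 7.26, 7.23 and 7.23 with DHX9-1271 and 7.40, 7.41 and 7.62 with DHX9-837. The groups were fully separate, in the order control, DHX9-1271, DHX9-837. The rise was 1.43-fold for both hairpins, with log2 folds of 0.51 (SE 0.056, adjusted p = 0.000979) pooled, 0.39 (SE 0.065, adjusted p = 0.0149) for DHX9-1271 and 0.63 (SE 0.065, adjusted p = 0.000576) for DHX9-837. The hairpins differed by 0.24 (95% interval 0.09 to 0.38, adjusted p = 0.118). DHX9-1271 replicates 2 and 3 had identical deposited values for Mcm10, which narrows that group's spread, and the DHX9-1271 call ended without each of its replicates in turn (adjusted p = 0.0553, 0.0592 and 0.0639).

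Gins3, a subunit of the GINS complex, had levels of 6.36, 6.28 and 6.22 in the control arrays, 6.51, 6.50 and 6.50 with DHX9-1271 and 6.58, 6.48 and 6.56 with DHX9-837. All knockdown arrays were above all controls, and the hairpins overlapped. Its log2 fold was 0.23 (SE 0.044, adjusted p = 0.00999) for both hairpins, 0.25 (SE 0.051, adjusted p = 0.0116) for DHX9-837 and 0.22 (SE 0.051, adjusted p = 0.0507) for DHX9-1271. Gins3 was called with DHX9-1271 under array weights (adjusted p = 0.0372) and with arrays centred on their median (adjusted p = 0.0455). The same call came with cyclic loess (adjusted p = 0.0322) and with genes filtered at the median level (adjusted p = 0.0298). Cdc45, which acts on the ring together with GINS, had a pooled log2 fold of 0.15 (SE 0.046, adjusted p = 0.0652) with every knockdown array above every control. It was called when genes were filtered at the median level (adjusted p = 0.0412) and with cyclic loess (adjusted p = 0.0478). Gins2 had a log2 fold of 0.01.

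Gins4 was among the 3 lowest folds of the members. Its levels were 7.23, 7.14 and 7.32 in the control arrays, 7.02, 7.12 and 7.25 with DHX9-1271 and 7.04, 7.14 and 7.12 with DHX9-837, with overlapping groups and a log2 fold of -0.11 (SE 0.062, adjusted p = 0.263).

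**Figure D2:**
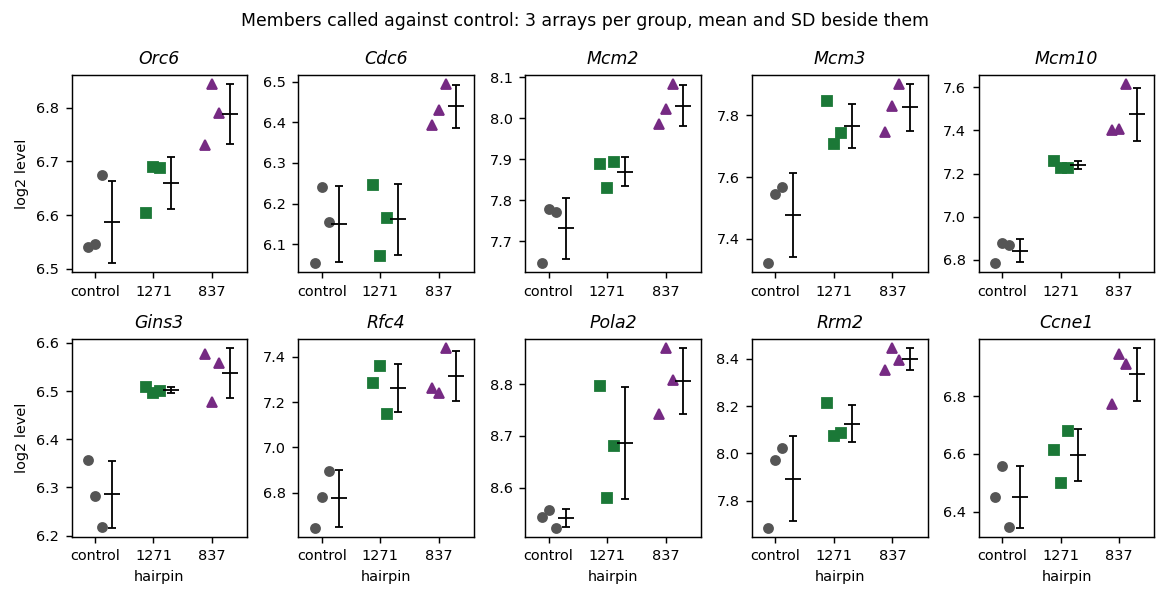
Log2 level of the 10 members called in at least 1 comparison with control, with a point for each array (circles control, squares DHX9-1271, triangles DHX9-837) and the group mean and SD beside the points (n = 3 arrays). Each panel has its own log2 axis, which does not start at 0. In Cdc6 the DHX9-1271 points overlap the controls, whereas in Mcm10, Rfc4 and Gins3 all 6 knockdown points lie above them.

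PCNA is the ring that holds polymerases on DNA, and the RFC complex loads it. Rfc4, a loader subunit, rose most of the members together with Mcm10, at 1.43-fold. It read 6.65, 6.78 and 6.89 in the control arrays, 7.28, 7.36 and 7.15 with DHX9-1271 and 7.26, 7.24 and 7.44 with DHX9-837. All knockdown arrays were above all controls by at least the gap between 6.89 and 7.15, and the hairpins overlapped. The log2 folds were 0.51 (SE 0.074, adjusted p = 0.00326) pooled, 0.49 (SE 0.086, adjusted p = 0.0197) for DHX9-1271 and 0.54 (SE 0.086, adjusted p = 0.00398) for DHX9-837. The DHX9-1271 call ended without its replicate 1 (adjusted p = 0.0669), without its replicate 2 (adjusted p = 0.0784) and without control replicate 1 (adjusted p = 0.0568).

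Rfc2, another subunit of the same loader, lay at the other end of the list. Its levels were 7.84, 7.70 and 7.81 in the control arrays, 7.65, 7.62 and 7.63 with DHX9-1271 and 7.49, 7.65 and 7.65 with DHX9-837, and every knockdown array was below every control array. Its log2 fold of -0.17 (SE 0.051, adjusted p = 0.0672), the lowest of the members, was not called. It was called lower without control replicate 2 (-0.21, adjusted p = 0.0473), with cyclic loess (-0.19, adjusted p = 0.0315) and when genes under the median level were left out (adjusted p = 0.044). Rfc1, Rfc3 and Rfc5, the other loader subunits, had log2 folds of -0.04, 0.11 and 0.0035. Pcna itself read 10.29, 10.22 and 10.27 in the control arrays, 10.43, 10.02 and 10.27 with DHX9-1271 and 10.34, 10.45 and 10.52 with DHX9-837, with a log2 fold of 0.08 (SE 0.085, adjusted p = 0.602). DHX9-1271 replicate 2 was the lowest of the 9 arrays for Pcna and DHX9-837 replicate 3 the highest.

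Of 6 polymerase and primase genes, Pola2 alone was called. Pola2, the regulatory subunit of polymerase alpha, which starts each new strand, read 8.54, 8.56 and 8.52 in the control arrays, 8.80, 8.58 and 8.68 with DHX9-1271 and 8.74, 8.87 and 8.81 with DHX9-837. Control arrays were tight (SD 0.017, n = 3) and lay below all knockdown arrays. The log2 fold was 0.20 (SE 0.054, adjusted p = 0.0387) pooled, 0.27 (SE 0.062, adjusted p = 0.0218) with DHX9-837 and 0.14 (SE 0.062, adjusted p = 0.234) with DHX9-1271. This was the least stable of the pooled calls, since 7 of 9 fits without 1 array ended it (adjusted p up to 0.10, without control replicate 1). Those 7 left out any control array, DHX9-1271 replicate 1 or 3, or DHX9-837 replicate 2 or 3. The DHX9-837 call ended in 4 of the 9 (adjusted p up to 0.0735, without its replicate 2), the others being those without its replicate 3 and without control replicate 1 or 3. The primase subunit Prim2 had a pooled log2 fold of 0.25 (SE 0.074, adjusted p = 0.0566), and it was called when genes under the median level were left out (adjusted p = 0.0387), with trend and robust moderation (adjusted p = 0.04) and without control replicate 2 (0.36, adjusted p = 0.00377), whose level of 7.65 stood apart from 7.30 and 7.34. Prim1, the other primase subunit, had a log2 fold of 0.10 with all knockdown arrays above all controls. Pola1 (-0.05), the polymerase delta gene Pold1 (0.11) and the polymerase epsilon gene Pole (0.09) were not called.

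The 3 single-strand binding genes and the 2 lagging-strand enzymes gave 0 calls, too few genes to compare with the 8.13% of all genes that rose in the pooled comparison. Rpa1, Rpa2 and Rpa3, whose products coat unwound DNA, had pooled log2 folds of 0.12, -0.05 and -0.0085. Lig1, which joins Okazaki fragments, had 0.06. Fen1, the flap nuclease that trims them, had -0.0032, with a 95% interval of -0.14 to 0.13. Only 6 distinct deposited values stood behind its 9 arrays.

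Nucleotide supply was represented by Rrm2, which was called, and by Rrm1, Tyms, Tk1 and the uracil glycosylase gene Ung, which were not. Rrm2, the small subunit of ribonucleotide reductase, whose level rises in S phase, read 7.69, 7.97 and 8.02 in the control arrays, 8.21, 8.07 and 8.08 with DHX9-1271 and 8.35, 8.45 and 8.39 with DHX9-837. The 3 groups were separate, in the order control, DHX9-1271, DHX9-837. Its rise was 1.29-fold, with log2 folds of 0.37 (SE 0.076, adjusted p = 0.0143) pooled, 0.50 (SE 0.087, adjusted p = 0.00607) for DHX9-837 and 0.23 (SE 0.087, adjusted p = 0.179) for DHX9-1271. Between hairpins it differed by 0.27 (95% interval 0.08 to 0.47, adjusted p = 0.18). Rrm1, the large subunit, had a pooled log2 fold of 0.18 (SE 0.056, adjusted p = 0.0707) with all knockdown arrays above all controls. It was called when genes under the median level were left out (adjusted p = 0.0472). The thymidylate enzymes Tyms and Tk1 had log2 folds of 0.10 and 0.04, and Ung 0.07.

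Cyclin E with its kinase drives entry into S phase. Ccne1 read 6.45, 6.56 and 6.35 in the control arrays, 6.61, 6.50 and 6.68 with DHX9-1271 and 6.77, 6.95 and 6.91 with DHX9-837. The DHX9-837 arrays lay above all others and the DHX9-1271 arrays overlapped the controls. Its log2 fold was 0.29 (SE 0.065, adjusted p = 0.0222) pooled, 0.42 (SE 0.075, adjusted p = 0.00653) with DHX9-837 and 0.15 (SE 0.075, adjusted p = 0.312) with DHX9-1271, a difference between hairpins of 0.28 (95% interval 0.11 to 0.45, adjusted p = 0.115). The pooled call ended without control replicate 1 (adjusted p = 0.0699), without control replicate 3 (adjusted p = 0.0756) and without DHX9-1271 replicate 3 (adjusted p = 0.0525). Ccne2, the paralogue, had a pooled log2 fold of -0.04 (SE 0.062, adjusted p = 0.734). Its 9 arrays ran from 6.26 to 6.55.

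Chromatin genes gave 0 calls of 4, again too few genes to compare with the 8.13% of all genes that rose in the pooled comparison. Chaf1b and Chaf1a, subunits of the assembly factor that places histones on new DNA, pointed in opposite directions. Chaf1b read 7.38, 7.37 and 7.54 in the control arrays, 7.32, 7.30 and 7.21 with DHX9-1271 and 7.32, 7.37 and 7.32 with DHX9-837, every knockdown array being below every control array, by as little as 0.0013 between 7.3716 and 7.3703. Its log2 fold was -0.12 (SE 0.050, adjusted p = 0.141), and that of Chaf1a was 0.06. Uhrf1, which brings the maintenance methyltransferase to new DNA, had 0.04. Slbp, which binds histone mRNA, had 0.19 (SE 0.072, adjusted p = 0.126), with all knockdown arrays above all controls.

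**Figure D3:**
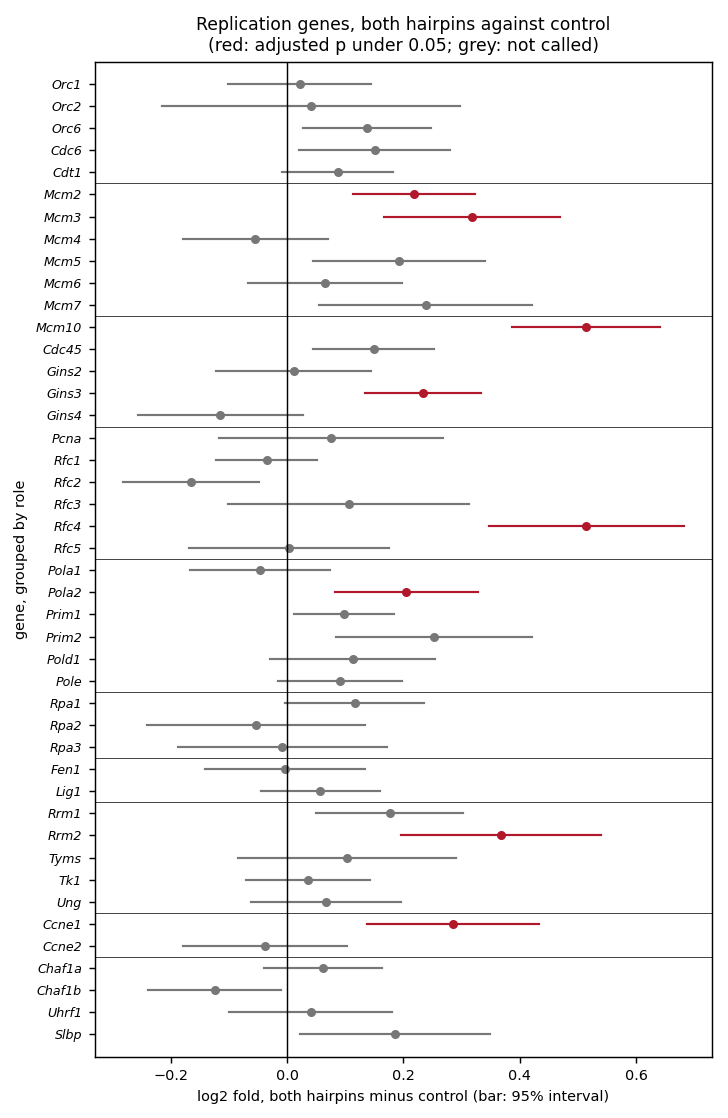
Log2 fold of both hairpins against control for the 44 tested members, grouped by role; points are estimates and bars 95% intervals from limma, red where the adjusted p was under 0.05. The 8 red points lie between 0.20 (Pola2) and 0.51 (Mcm10 and Rfc4), and the grey points lie between -0.17 (Rfc2) and 0.25 (Prim2).

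Between the hairpins, all 44 intervals of the difference lay within -0.30 and 0.47 on the log2 scale, so at this number of arrays a difference beyond that was outside the interval of every member. The 7 members with an unadjusted p under 0.05 were Orc6, Cdc6, Mcm2, Mcm4, Mcm10, Rrm2 and Ccne1, all higher with DHX9-837. Such a p was reached by 2409 of all 16808 genes, so 7 of 44 is close to the share of all genes. In 11 members all DHX9-837 arrays lay above all DHX9-1271 arrays (9.37% of all genes did), and in 1, Prim1, they lay below (12.6% of all genes). Dhx9 levels differed between the hairpins by -0.02 (95% interval -0.14 to 0.09, adjusted p = 0.908).

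Other genes of the pathway were taken from a list of 49. Of the 45 tested, 11 rose with both hairpins (24.4%, against 8.13% of all genes), 0 fell and 34 were not called. The smallest p belonged to Dnmt1, the maintenance DNA methyltransferase (0.38, SE 0.044, adjusted p = 0.00132), and to the histone chaperone gene Asf1a (0.39, SE 0.059, adjusted p = 0.00423). Tipin, of the fork protection complex, rose by 0.32 (SE 0.055, adjusted p = 0.00706) and Ticrr, which helps to bring Cdc45 to the ring, by 0.27 (SE 0.048, adjusted p = 0.00797). The others that rose were Dbf4, Cdc7, Mtbp, Topbp1, Pold2, Pole3 and Hells. The median log2 fold of this list was 0.11. With DHX9-1271 alone 2 rose, Asf1a and Dnmt1 (4.44%, against 2.83% of all genes), and with DHX9-837 alone 13 did (28.9%, against 8.67%).

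The list of S-phase control had 10 of 29 genes higher and 1 lower with both hairpins (34.5% and 3.45%, against 8.13% and 5.33% of all genes). Ccnd2, a D-type cyclin, rose by 0.57 (SE 0.058, adjusted p = 0.000811) and E2f4, an E2F of mainly repressive complexes, by 0.36 (SE 0.038, adjusted p = 0.000939). Myc rose by 0.50 (SE 0.082, adjusted p = 0.00551) and Ccna2, the cyclin of S phase and G2, by 0.43 (SE 0.075, adjusted p = 0.00725). The gene that fell was Cdc25a, a phosphatase that activates the S-phase kinase (-0.21, SE 0.052, adjusted p = 0.0283; named after its value was seen). The others that rose were E2f2, E2f6, E2f8, Cdk4, Skp2 and Cdkn1a, the last a kinase inhibitor. The median log2 fold of the S-phase control list was 0.058. With DHX9-1271 alone 3 were higher and 0 lower (2.83% and 1.58% of all genes were). With DHX9-837 alone 11 were higher and 3 lower (8.67% and 6.91% of all genes were), the 3 being Cdc25a, Tfdp2, a partner of E2F proteins, and Cdkn1b, a kinase inhibitor. Ccnd1, a D-type cyclin, was called between the hairpins (0.27, adjusted p = 0.0263), at -0.10 with DHX9-1271, not called, and 0.17 with DHX9-837 (adjusted p = 0.0387). Tfdp2, Cdkn1b and Ccnd1 were also named after their values were seen.

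Genes of G2 and mitosis, given for scale, had 22 of 25 tested members higher, 0 lower and a median log2 fold of 0.42. That is 88%, against 8.13% of all genes. With DHX9-1271 alone 13 were higher and with DHX9-837 alone 19 (52% and 76%, against 2.83% and 8.67%). Tpx2 (0.49, SE 0.043), Kif23 (0.71, SE 0.075), Mki67 (0.59, SE 0.075) and Ccnb2 (0.66, SE 0.097) had the smallest p (adjusted p = 0.000388 to 0.00362). The mean level of these 25 genes was 7.17, 7.54 and 7.40 in control arrays, 7.78 to 7.80 with DHX9-1271 and 7.77 to 7.87 with DHX9-837. For the 44 replication genes the mean level was 7.21, 7.30 and 7.28 in control arrays, 7.38, 7.30 and 7.34 with DHX9-1271, and 7.35, 7.41 and 7.45 with DHX9-837. The mitotic list was separate between control and knockdown arrays, while for the replication genes DHX9-1271 replicate 2 (7.2962) lay just below control replicate 2 (7.297). Both lists were lowest in control replicate 1. The difference between the lists was not tested.

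**Figure D4:**
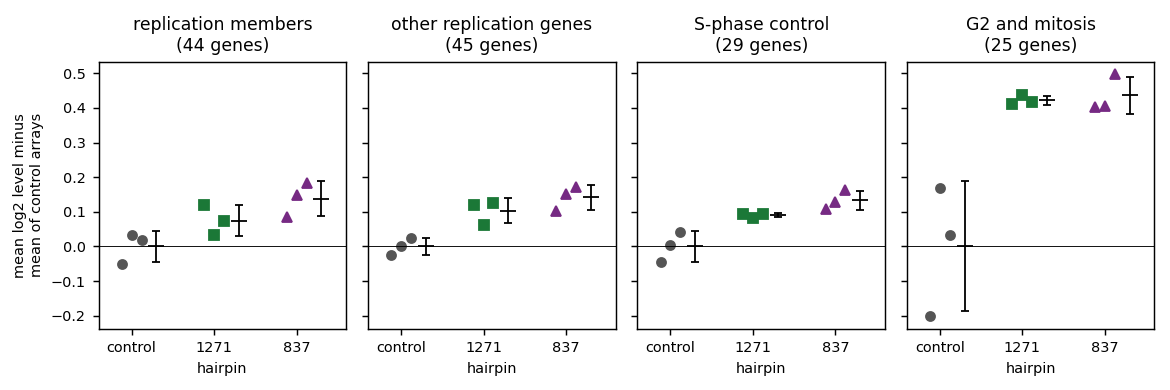
Mean log2 level of 4 gene lists in each array, minus the mean of the 3 control arrays, with points for arrays and the group mean and SD beside them (n = 3). The G2 and mitosis list lies highest above its controls in all 6 knockdown arrays, and its control arrays spread more widely (SD 0.19) than those of the replication members (SD 0.045).

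Markers of cell types in the gut wall were called in the pooled comparison as well, and those named here were named after their values were seen. Over all genes 8.13% rose and 5.33% fell in that comparison. Of 9 tested markers of crypt stem and transit cells, 4 rose (Ascl2, Axin2, Cd44 and Slc12a2) and 0 fell. The list mean was 7.42 to 7.69 in controls, 7.60 to 7.74 with DHX9-1271 and 7.57 to 8.14 with DHX9-837. The stem cell markers Lgr5 and Smoc2 had log2 folds of -0.16 and -0.17 pooled and -0.27 and -0.23 with DHX9-837, none called, and all 3 DHX9-837 arrays of Lgr5 lay below the controls. Olfm4, another crypt base marker, ran from 5.39 to 8.33 over the DHX9-837 arrays and widened the range of that list mean. Of 12 B and plasma cell markers, 5 rose (Ms4a1, Cd79b, Cd22, Pax5 and Ighm), with list means of 7.21 to 7.34, 7.46 to 7.92 and 7.52 to 7.84 in the same order. These 5 mark B cells, while the plasma cell markers Tnfrsf17, Sdc1 and Jchain had pooled log2 folds of -0.11, -0.02 and 0.08, none called. Among 6 germinal centre markers 0 rose and 1, Fas, fell, with list means of 6.41 to 6.66, 6.47 to 6.59 and 6.44 to 6.65. Macrophage and granulocyte markers had 4 of 9 higher, Csf1r, C1qb, C1qc and Cd68, and 1 lower, Cd14 (7.46 to 7.52, 7.56 to 7.63 and 7.69 to 7.69). Fibroblast and matrix markers had 5 of 9 higher, Dcn, Pdgfra, Fbln1, Postn and Thy1 (8.72 to 8.93, 9.06 to 9.13 and 8.998 to 9.116). T and NK cell markers had 1 of 11 higher, Cd4 (6.70 to 6.82, 6.75 to 6.81 and 6.44 to 6.99), which is 9.09% and near the share of all genes. Of these 11, 8 had a negative fold, the median was -0.11, and Cd8a (-0.26) and Nkg7 (-0.26), not called, had every knockdown array below every control array. Of all 16808 genes, 8335 had a negative fold, and in 6.73% every knockdown array lay below every control array. Smooth muscle markers had 0 of 7 called (10.72 to 10.89, 10.80 to 10.93 and 10.53 to 10.75). Of 12 large intestine epithelium markers 0 rose and 1, Slc26a3, fell, which is 8.33% (10.26 to 10.36, 10.29 to 10.35 and 10.12 to 10.24). With DHX9-837 alone 2 of the 12 fell, Slc26a3 (-0.63) and Aqp8 (-0.60), which is 16.7%, against 6.91% of all genes. Both were also called lower with DHX9-837 than with DHX9-1271 (16.7%, against 1.21% of all genes). The part of these cell types in the rise of the replication genes was not tested.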

How the data were processed

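The deposited table holds log2 expression values that, per the submitters' processing notes, the authors made with RMA (oligo 1.30.0, R 3.1.1). This method corrects background, equalises array distributions and summarises probes, so shifts shared by all genes are removed. Genome build and probe set definition: not given in the sources used here. Of 24973 probe sets, 24015 had 1 gene symbol, 0 had several and 958 were not listed in the platform table. The brightest probe set stood for a gene. Genes with a mean log2 level under 5.28, the 30th percentile, were not tested.

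Group means over all 9 arrays were fitted with limma 3.58.1 in R 4.3.3, with moderated variances and Benjamini-Hochberg adjustment over 16808 genes; a call is an adjusted p under 0.05. The fit was tested on simulated data, in which the set changes were larger than the pooled rises of the called members. That test therefore does not show how well rises of their size are found. The labels do not state separate animals or batches. Members and gene lists were chosen with earlier results of these data known. All members are accounted for: those called in any comparison and the 3 lowest pooled folds are given by array, and up to 4 genes of smallest p are named from each other cell cycle list. Promoter windows came from RefSeq's GRCm38.p6 table. Alternatives covered the level filter, array centring, cyclic loess, array weights, moderation, the arrays fitted, the probe set rule, a minimum fold, the replicate block and each array left out. Of the tested members, 19 of 44 had tied deposited values, as did 45.3% of genes tested.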

Additional observations from a re-analysis of the deposited data

How the results depend on the processing

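No member called in the main fit or in an alternative had a fold of opposite sign in the other. Sign changes of members called in neither fit were not counted. With both hairpins, 8 members were higher, against 8.13% of all genes. A minimum of 1.2-fold left 5 (4.94% of all genes), and fits without 1 array gave 5 to 9 (4.63% to 6.91% of all genes). For DHX9-1271, 2 were higher (2.83% of all genes), and 0 to 3 without 1 array (0.458% to 2.56%). For DHX9-837, 10 were higher (8.67% of all genes), and 6 to 11 without 1 array (5.6% to 7.93%). Members lower were 0, against 1 with both hairpins and 1 with DHX9-837 under cyclic loess and under the filter at the median gene, and 0 to 1 without 1 array. The member was Rfc2 each time. Of all genes, 6.79% and 8.25% were lower in these comparisons under cyclic loess, and 8.39% and 11% under that filter. Between hairpins 0 were called, and 1, Cdc6, with array weights (0.27, adjusted p = 0.0339). Of all genes, 1.68% were called higher and 2.6% lower between hairpins with array weights, against 0.696% and 1.21% in the main fit. The cause of these shifts was not tested. Mcm3, Mcm10, Gins3, Rfc4 and Rrm2 kept the pooled call in all 9 fits without 1 array.

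With the replicate block, 7 members were higher with both hairpins, 2 with DHX9-1271 and 10 with DHX9-837. Of all genes, 7.01%, 1.57% and 7.63% were higher with that block, in the same order. The pooled Pola2 call was lost in 4 of 8 settings: the block, array weights, cyclic loess and no level filter. Orc6 with DHX9-837 lost its call in 5 of 9 settings. Both totals of settings include the probe set rule, which could not change a member's levels, since each member had 1 probe set. The arrays share only a number: deviations of same-numbered arrays correlated at -0.366 to 0.261 over 9 pairs, and not every array correlated best with its own number. The median member log2 fold with both hairpins was 0.0763 to 0.0912 over the settings and 0.0658 to 0.113 without 1 array; for DHX9-1271 it was 0.039 to 0.0688 and 0.0359 to 0.0795. Over all genes, DHX9-1271 gave 475 higher and 266 lower, against 425 and 366 with cyclic loess, and 254 and 154 with no level filter. Without its replicate 1, 2 or 3 it gave 189 and 104, 131 and 73, or 77 and 51. With 3 arrays a group, small folds such as those of most members cannot be told from 0.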
